A study of Mus musculus with 6 samples.

Results

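Expression of 7 sterol pathway genes (Hmgcs1, Idi1, Fdps, Fdft1, Sqle, Dhcr7 and Insig1) was described in bulk RNA-seq of mouse dorsal root ganglia, which hold the cell bodies of sensory neurons and their glia. They were found by matching the Ensembl gene identifiers of the deposited table to these symbols, and they made up 7 of its 54532 gene rows. All 7 were found, and all 7 passed the filter on low values. Of the 7, 6 encode enzymes of cholesterol synthesis. Insig1 encodes no enzyme but a protein of the endoplasmic reticulum that restrains the pathway.

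The Hdac2 cKO group (3 libraries) had both floxed Hdac2 and a Cre recombinase driven by the Advillin promoter, whose activity is mainly in sensory neurons (genotype Adv-Cre+/hdac2-flop++). Their WT littermates (3 libraries) had the floxed Hdac2 alleles without Cre (genotype hdac2-flop++). All were C57BL/6 mice aged 8 weeks. Cre alone was present in no group, so Cre itself and loss of Hdac2 cannot be told apart, and the sources used here do not say whether a library came from 1 mouse or several. P-values therefore measure the spread between these libraries. Values are normalised read counts, which are reads per gene divided by 1 size factor per library. A log2 fold change is the mean of log2 (value + 1) in Hdac2 cKO less that in WT.

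Hdac2 stood at 499.1, 371.5 and 535.0 normalised read counts in Hdac2 cKO libraries 1, 2 and 3, against 2816, 1715 and 3498 in WT libraries 1, 2 and 3. Reads per library ranged from 18943595 to 42070531. Of the 12 listed sensory neuron markers all 12 passed the filter, with a median log2 fold change of -0.06 (0.09 without WT 3). Log2 fold changes were positive for 5 of them and negative for 7. Without overlap of the groups, 3 lay higher and 1 lower in Hdac2 cKO (4.63% and 3.91% of all tested genes did). Their summed level was 430489 to 549347 normalised read counts in the Hdac2 cKO libraries and 407445 to 624125 in the WT libraries. WT 3 stood apart from the other 5 libraries: it was the highest or the lowest of the 6 for 71% of the 18410 genes tested. Its median absolute deviation was 0.780 on the log2 scale, against 0.302 to 0.321 in the others. Log2 fold changes of the sterol genes are therefore given also without WT 3. In bulk tissue, fewer cells of a type and less RNA per cell cannot be told apart.

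Cholesterol is built from acetyl-CoA through mevalonate and the isoprenoid farnesyl pyrophosphate to squalene, which is then closed into a sterol ring and trimmed to cholesterol. When membrane sterol is low, the protein SCAP carries the transcription factor SREBP2 from the endoplasmic reticulum to the Golgi, where it is cut and released, and it then raises transcription of most genes of the pathway by binding sterol regulatory elements in their promoters. INSIG1 holds SCAP back when sterol is plentiful. In peripheral nerve, cholesterol is a major lipid of myelin, and myelinating Schwann cells make much of it themselves, so whole-ganglion RNA holds these transcripts from glia as well as from neurons.

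Upstream sequence is shown for 2 of the genes, an enzyme at the head of the pathway and its restraining protein, because the pathway is known for control through promoter elements. The table of RefSeq promoters (GRCm38.p6) matched 4 of the 7, namely Hmgcs1, Idi1, Dhcr7 and Insig1. The stretches below end 1 base before the first annotated start and are written 5′ to 3′ on the gene's strand. The Hmgcs1 stretch covers chr13:119690101-119690350 on the plus strand, and the Insig1 stretch covers chr5:28071162-28071362 on the plus strand. Capitals mark the letters TCACNCCAC, a form of the sterol regulatory element, and CCAAT on either strand, so that ATTGG is CCAAT on the opposite strand.
Hmgcs1: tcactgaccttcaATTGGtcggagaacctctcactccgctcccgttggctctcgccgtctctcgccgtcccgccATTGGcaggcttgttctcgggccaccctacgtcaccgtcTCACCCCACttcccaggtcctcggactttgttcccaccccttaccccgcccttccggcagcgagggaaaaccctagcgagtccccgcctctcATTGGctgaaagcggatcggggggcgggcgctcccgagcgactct
Insig1: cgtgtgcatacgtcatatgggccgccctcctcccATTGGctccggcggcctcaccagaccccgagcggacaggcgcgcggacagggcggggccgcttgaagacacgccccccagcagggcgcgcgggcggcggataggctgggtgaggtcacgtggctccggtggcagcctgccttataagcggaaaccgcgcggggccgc

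Hmgcs1 held 1 match to TCACNCCAC, at chr13:119690214-119690222, which begins 137 bases before the first annotated start. No such match lay in the windows of Idi1, Dhcr7 or Insig1, and 1.24% of 32851 promoter windows of 300 bases (250 before to 50 after a start, both strands searched) held one. CCAAT occurred 4 times in the full Hmgcs1 window, 2 times in that of Idi1, 2 times in 1 of the 3 windows of Dhcr7 and 1 time in that of Insig1, and 37.4% of all windows held it. The GC box GGGCGG, which can share end letters with the other motifs, occurred 3 times in each of the Hmgcs1 and Insig1 windows, 3 times, 1 time and 0 times in the 3 windows of Dhcr7 and 1 time in that of Idi1, and 35.7% of all windows held it. These matches describe letters and not bound sites. Beside them, Hmgcs1 and Insig1 had overlapping groups, as described next.

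None of the 7 genes passed the test over all genes. In limma their adjusted p ran from 0.927 to 0.964. No gene of 18410 passed limma (0%). Hdac2 itself, at a log2 fold change of -2.47, had a limma adjusted p of 0.927, and in DESeq2 its adjusted p was 1.72e-08. An unadjusted p under 0.05 was reached by 341 genes (1.85%), 0 of them among the 7. DESeq2 on the recovered reads called 28 genes (0.152%), again 0 of the 7, each of which had a DESeq2 adjusted p of 0.992. With the replicate number as a block DESeq2 called 79 genes (0.429%), and 0 of the 7. The groups overlapped for all 7, while 8.54% of all tested genes had groups that did not overlap, 4.63% higher and 3.91% lower in Hdac2 cKO. The median log2 fold change of the 7 was -0.08, beside 0.06 over all tested genes.

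Hmgcs1 (ENSMUSG00000093930, mm10 chromosome 13, 119690379 to 119708260, plus strand) encodes cytosolic HMG-CoA synthase, which joins acetyl-CoA and acetoacetyl-CoA early in the pathway. Its values were 17121, 16481 and 19092 normalised read counts in Hdac2 cKO 1, 2 and 3, against 17762, 19373 and 27333 in WT 1, 2 and 3. Only WT 3 lay far from the rest, and the other 5 libraries lay between 16481 and 19373. The means were 17565 ± 1361 in Hdac2 cKO and 21489 ± 5124 in WT (SD, n = 3 each). The log2 fold change was -0.27 (SE 0.22, 95% interval -0.79 to 0.26). By an exact two-sided permutation test p was 0.2, where 0.1 is the smallest p that 3 against 3 allows. Without WT 3 the log2 fold change was -0.08. Exons of Gm48342 on the opposite strand cover 35.1% of the coding bases of Hmgcs1, and that gene reached at most 17.2 normalised read counts in any library. The sources used here do not say how reads in such shared exons were counted, so reads of Hmgcs1 may be missing there.

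Idi1 (ENSMUSG00000058258, chromosome 13, 8885501 to 8892451, plus strand) encodes the isomerase that turns isopentenyl pyrophosphate into dimethylallyl pyrophosphate, the starter of isoprenoid chains. The libraries held 1963, 2025 and 1567 normalised read counts in Hdac2 cKO 1, 2 and 3, against 2074, 1988 and 973.0 in WT 1, 2 and 3. Both libraries numbered 3 lay at the bottom of their group. With all 6 libraries its log2 fold change was 0.21 (SE 0.33, 95% interval -0.55 to 0.97; exact permutation p = 0.9), and it was -0.14 without WT 3. Of the 50-base stretches of Idi1 transcripts, 25.3% also occur in transcripts of other genes, so some of its reads may have more than 1 source. Gm13502, which shares some of them, held 8.85 to 29.6 normalised read counts.

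Fdps (ENSMUSG00000059743, chromosome 3, 89093588 to 89101959, minus strand) encodes farnesyl pyrophosphate synthase, which makes the last intermediate that sterols share with prenylated proteins, dolichol and ubiquinone. Its counts were low, at 159.6, 139.6 and 104.9 normalised read counts in Hdac2 cKO 1, 2 and 3, against 147.4, 189.1 and 158.4 in WT 1, 2 and 3. These values rest on 158, 142 and 150 reads in Hdac2 cKO and on 167, 127 and 155 reads in WT. The highest library was WT 2 and the lowest Hdac2 cKO 3. The log2 fold change was -0.30 (SE 0.32, 95% interval -1.04 to 0.44; exact permutation p = 0.3), and it was -0.33 without WT 3. In the GENCODE annotation, 85.9% of the coding bases of Fdps lie within exons of Gm43738, a gene on the same strand that held 1 read in all 6 libraries together, so the deposited level of Fdps is uncertain: the sources used here do not say how reads in exons of more than 1 gene were counted.

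Fdft1 (ENSMUSG00000021273, chromosome 14, 63145150 to 63179578, minus strand) encodes squalene synthase, the first enzyme committed to sterols. Its libraries had 8048, 7719 and 9030.0 normalised read counts in Hdac2 cKO 1, 2 and 3, against 8359.5, 7516 and 16339 in WT 1, 2 and 3. WT 3 held 2.06 times the mean of WT 1 and WT 2, and the other 5 libraries lay between 7516 and 9030.0. For the 6 libraries the log2 fold change was -0.29 (SE 0.31, 95% interval -1.02 to 0.44; exact permutation p = 0.7), and it was 0.06 without WT 3. Of its exon bases, 18.3% lie opposite exons of Ctsb, a lysosomal protease gene, and none of these bases is coding. Ctsb stood at 46311, 48114 and 50652 in Hdac2 cKO and at 44620.1, 45082 and 21496 in WT, so in WT 3 it lay opposite to Fdft1.

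Sqle (ENSMUSG00000022351, chromosome 15, 59315077 to 59331192, plus strand) encodes squalene epoxidase, a rate-limiting oxygen-dependent step. Its level was 5990.4, 4985 and 4590.2 normalised read counts in Hdac2 cKO 1, 2 and 3, against 5347, 5682 and 3416 in WT 1, 2 and 3. The highest library was a knockout one and the lowest was WT 3. The log2 fold change was 0.13 (SE 0.25, 95% interval -0.46 to 0.73; exact permutation p = 0.8), and it was -0.10 without WT 3.

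Dhcr7 (ENSMUSG00000058454, chromosome 7, 143823145 to 143848410, plus strand) encodes the reductase that turns 7-dehydrocholesterol into cholesterol, the last step of one branch of the pathway. It had 3233, 2529.9 and 2839 normalised read counts in Hdac2 cKO 1, 2 and 3, against 2431, 3877 and 1675 in WT 1, 2 and 3. The WT libraries spanned the whole range, with WT 2 highest and WT 3 lowest, and the 3 knockout libraries lay between them. Between groups the log2 fold change was 0.19 (SE 0.32, 95% interval -0.56 to 0.93; exact permutation p = 0.7), and it was -0.11 without WT 3.

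Insig1 (ENSMUSG00000045294, chromosome 5, 28071363 to 28078662, plus strand), which is itself a target of SREBP2, stood at 2901, 2946 and 2084 normalised read counts in Hdac2 cKO 1, 2 and 3, against 3170.3, 3419 and 1929 in WT 1, 2 and 3. In both groups the library numbered 3 was the lowest. Its log2 fold change was -0.08 (SE 0.28, 95% interval -0.74 to 0.59; exact permutation p = 0.7), and it was -0.33 without WT 3.

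**Figure D1:**
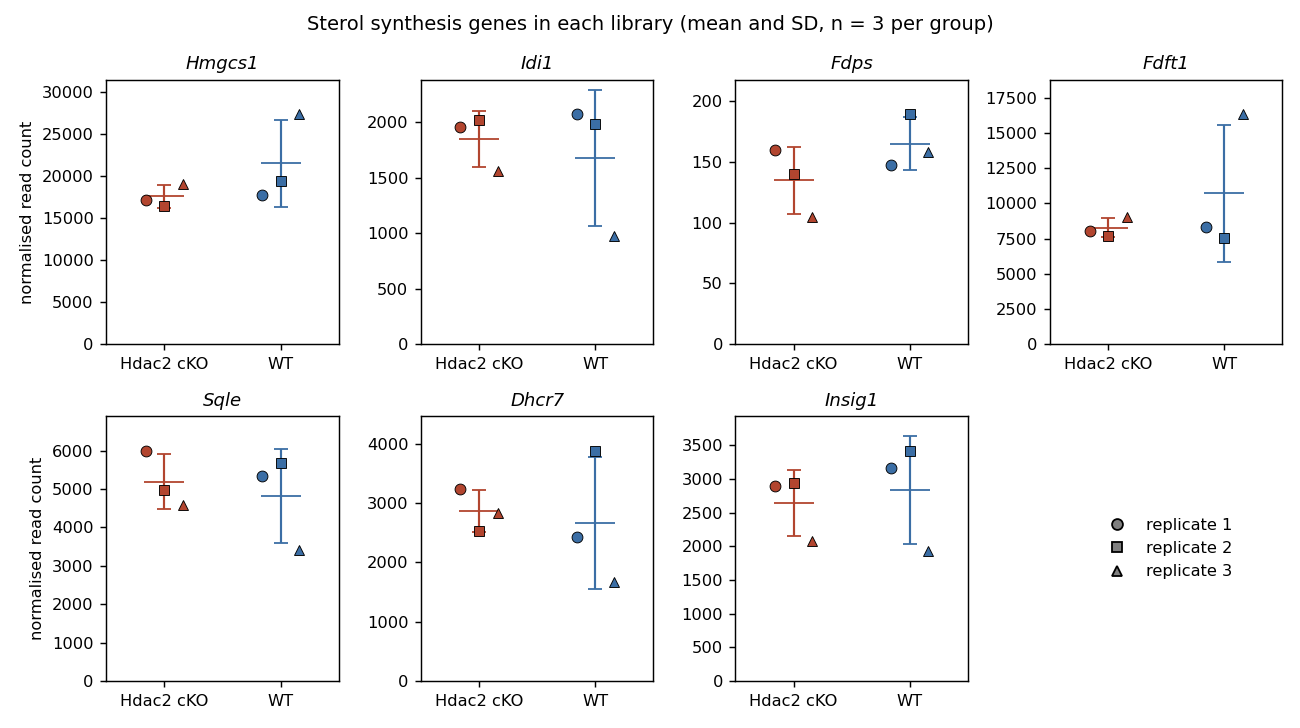
Normalised read counts (vertical axes, starting at 0) of the 7 genes in the 3 Hdac2 cKO libraries (red) and the 3 WT libraries (blue), with symbols for replicate numbers and with the mean and SD of each group. The groups overlap in every panel, and WT 3 (blue triangle) lies highest for Hmgcs1 and Fdft1 and lowest for Idi1, Sqle, Dhcr7 and Insig1.

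Per kilobase of exon, the order of the mean levels in Hdac2 cKO was Hmgcs1 (3823 ± 296 normalised read counts per kilobase), Fdft1 (1956 ± 161), Sqle (936 ± 130), Insig1 (855 ± 157), Idi1 (528 ± 70.9), Dhcr7 (493 ± 60.6) and Fdps (32.0 ± 6.58; SD, n = 3 each). In WT the same scale gave Hmgcs1 at 4678 ± 1115, Fdft1 at 2540 ± 1152, Insig1 at 918 ± 258, Sqle at 868 ± 221, Idi1 at 479 ± 175, Dhcr7 at 457 ± 192 and Fdps at 39.2 ± 5.14 (SD, n = 3 each). Sqle and Insig1 changed places between the groups, and so did no other neighbours. The levels of Sqle and Insig1, and those of Idi1 and Dhcr7, differed by less than their SDs in both groups. The lengths hold all exon bases, also those shared with exons of other genes, where reads may not have been counted. The low place of Fdps is therefore uncertain.

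WT 3 lay outside the range of the other 5 libraries for 6 of the 7 genes, against 71% of all genes tested. It was the highest library for 2 of the 7 (30.5% of all genes) and the lowest for 4 (40.4% of all genes). On the log2 scale its distance from the mean of the other 5 was 1.01 for Fdft1, 0.61 for Hmgcs1 and 0.12 for Fdps. That distance was -0.57 for Insig1, -0.63 for Sqle, -0.81 for Dhcr7 and -0.98 for Idi1. Enzymes of 1 pathway thus lay on opposite sides of the other libraries in WT 3.

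The distance of WT 3 from the other libraries also moved with exon length among genes with more than 1000 exon bases and a mean of at least 100 normalised read counts. Its median was 0.18 for the 1244 genes with 1000 to 2000 exon bases, -0.13 for the 1736 genes with 4000 to 5000, and -0.33 for the 2548 genes above 8000. The exon lengths were 4594 bases for Hmgcs1, 4227 for Fdft1, 4208 for Fdps and 3505 for Idi1. Hmgcs1 and Fdft1 therefore lay above the median of their own length class. The part of length in the values of WT 3 was not tested.

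Without WT 3, 6 of the 7 log2 fold changes were negative, with a median of -0.11 beside -0.01 over all genes tested. The signs of Idi1, Sqle and Dhcr7 turned negative and that of Fdft1 turned positive. No member passed limma in that fit. Libraries also differed in Y-linked reads, which were present in Hdac2 cKO 2, WT 2 and WT 3 and near 0 in Hdac2 cKO 1, Hdac2 cKO 3 and WT 1. Each set holds a group with only 1 library, so its fold changes are values with no test. They were, for Fdps, -0.31 where Y-linked reads were present and -0.19 where they were near 0. For Hmgcs1 these were -0.48 and 0.03, for Idi1 0.54 and -0.24, and for Fdft1 -0.52 and 0.03. They were 0.18 and -0.03 for Sqle, -0.01 and 0.32 for Dhcr7, and 0.20 and -0.37 for Insig1.

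The rest of the pathway was described from lists of its steps. Of the 5 other mevalonate genes, 0 passed limma or DESeq2, 2 had positive and 3 negative log2 fold changes, and the median was -0.07, and -0.10 without WT 3. Mvd, mevalonate diphosphate decarboxylase, averaged 1389 ± 38.6 in Hdac2 cKO and 2051 ± 685 in WT (SD, n = 3 each). This was a log2 fold change of -0.50 (SE 0.28, limma adjusted p = 0.927), and of -0.27 without WT 3. Pmvk, the kinase before it, had a log2 fold change of -0.32, which was 0.06 without WT 3.

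Of the 10 other genes of the steps after squalene, which close and trim the sterol ring, 0 passed. Of these 10, 9 had negative log2 fold changes, and the median was -0.31. Sqle and Dhcr7, which also act after squalene, were kept apart as members and were positive, at 0.13 and 0.19. Without WT 3 both were negative, at -0.10 and -0.11. Over all tested genes 8225 of 18410 were negative. Without WT 3, 9 of 10 were again negative, with a median of -0.26. Sc5d, the lathosterol desaturase, stood at 3513, 3627 and 3446 normalised read counts in Hdac2 cKO 1, 2 and 3, against 4795, 4915 and 3729 in WT 1, 2 and 3. All 3 knockout libraries lay below all 3 WT ones. The difference was -0.33 on the log2 scale (SE 0.19, limma adjusted p = 0.927). Limma with array weights, which weight each library by its likeness to its group, called Sc5d at -0.45 (adjusted p = 0.0489). That setting called 3.08% of all genes. Its WT side leaned mostly on library 2, weighted 4.166 beside 0.6696 for library 1 and 0.1011 for library 3. Hdac2 cKO 1, 2 and 3 had weights of 2.417, 3.652 and 0.4016. The call therefore rested largely on a single WT library, and the other 20 alternative settings did not call Sc5d. Without WT 3 the difference was -0.46.

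Tm7sf2, a sterol reductase of the same steps, also did not overlap, with 1720.2 ± 71.9 in Hdac2 cKO against 2239 ± 295 in WT (SD, n = 3 each), which is -0.37 on the log2 scale (SE 0.19, limma adjusted p = 0.927) and -0.32 without WT 3. The exception in sign within that list was Nsdhl. It stood at 2294.5, 1921 and 1179.9 in Hdac2 cKO 1, 2 and 3, against 1929.7, 2117 and 429.3 in WT 1, 2 and 3. Its log2 fold change of 0.52 was -0.22 without WT 3, while that of Msmo1 was -0.37 and became 0.04. The signs of both thus differed with and without WT 3.

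Beside these steps, markers of myelinating Schwann cells, which make much sterol, were lower in Hdac2 cKO by their summed level. Of 16 listed genes 14 had negative log2 fold changes, with a median of -0.69, and -0.73 without WT 3. The summed level was 182821 to 259703 normalised read counts in the Hdac2 cKO libraries and 398828 to 410572 in the WT libraries. None of the 16 was at 0 in every library, 7 lay lower without overlap (3.91% of all tested genes did), and DESeq2 called 1 of them, Mag (0.152% of all genes). Satellite glia markers had a median of -0.11. Skeletal muscle markers were lower as well, with negative log2 fold changes for all 11 tested of 12 listed and a median of -3.88. Their summed level was 237 to 1212 normalised read counts in the Hdac2 cKO libraries and 2785 to 9909 in the WT libraries, 9 lay lower without overlap, and DESeq2 called 5. Of the 6 fibroblast markers 5 had negative log2 fold changes, with a median of -0.49, and their summed level was 16548 to 30938 in the Hdac2 cKO libraries and 30896 to 34985 in the WT libraries. The part of these cells in the sterol values was not tested.

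**Figure D2:**
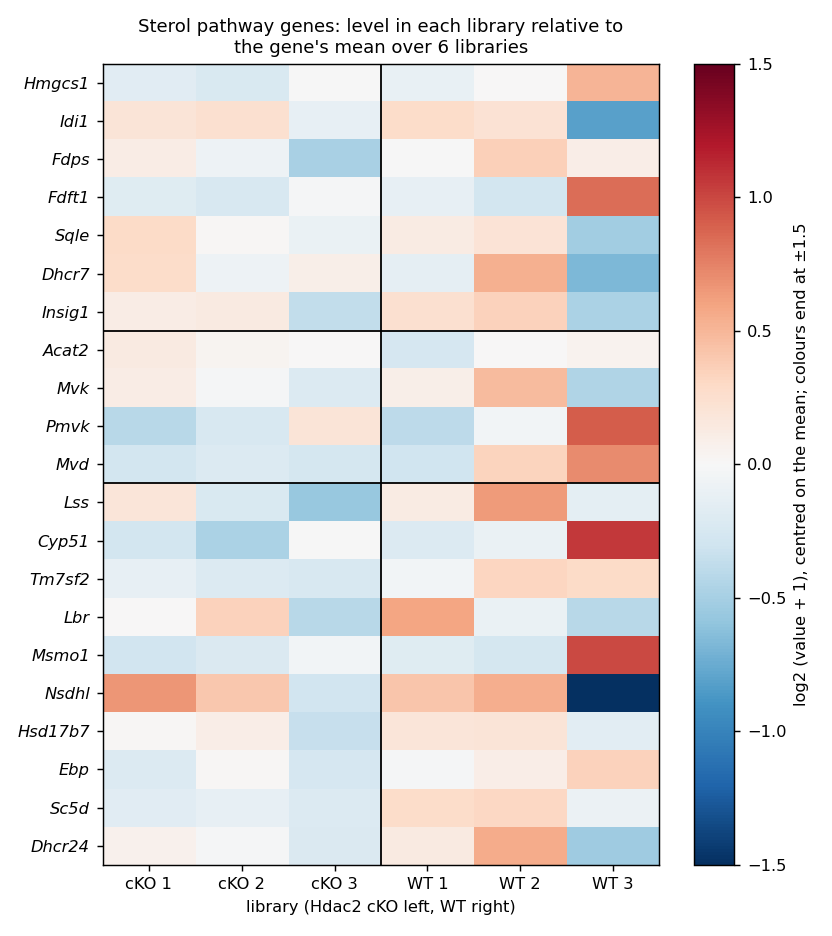
Colour shows log2 (value + 1) of each gene (rows) in each library (columns, Hdac2 cKO left, WT right), relative to the gene's mean over the 6 libraries, for the 7 genes (top), the other mevalonate steps (middle) and the steps after squalene (bottom). WT 3 holds both the strongest red (Cyp51, Msmo1 and Pmvk) and the strongest blue (Nsdhl, whose value lies beyond the end of the colour scale, and Idi1).

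**Figure D3:**
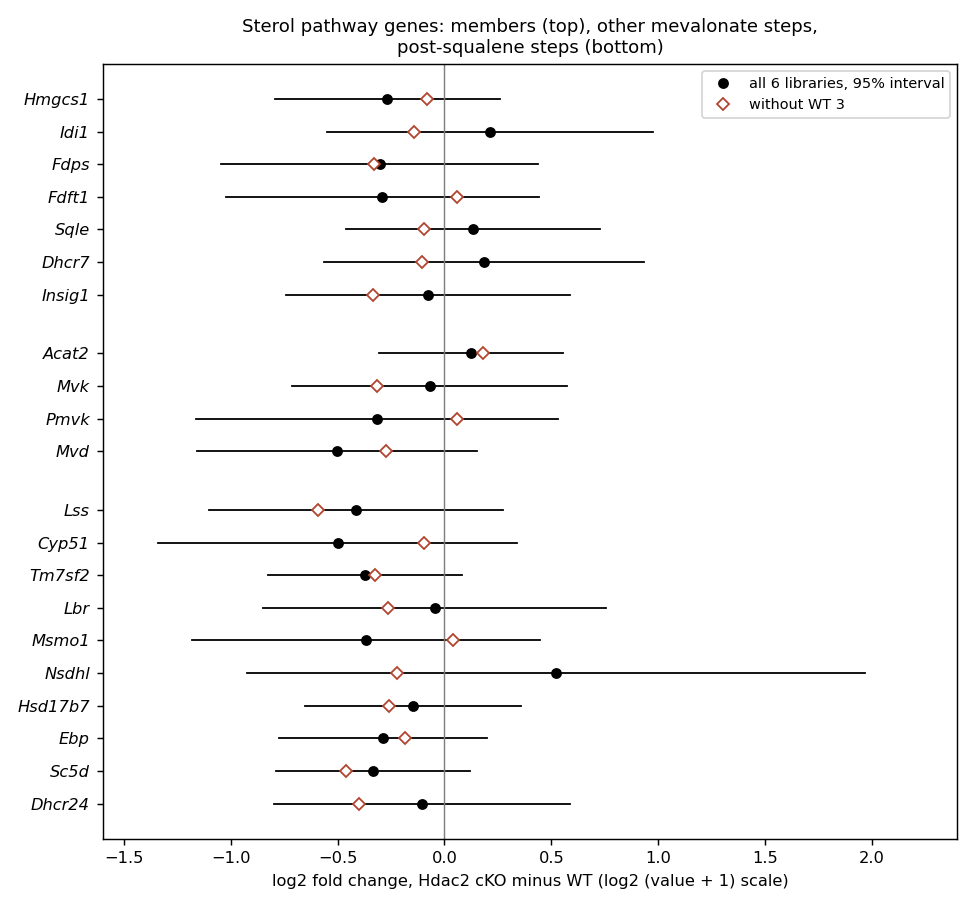
Log2 fold change, Hdac2 cKO minus WT, with its 95% interval from all 6 libraries (black), and the same value without WT 3 (open red diamonds). Rows are the 7 genes (top), the other mevalonate steps (middle) and the steps after squalene (bottom). Every interval shown spans 0. The open diamonds of Idi1, Fdft1, Sqle and Dhcr7, among others, lie on the other side of 0 from the black points.

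The 10 genes of the isoprenoid branches, which carry farnesyl pyrophosphate into prenyl groups, dolichol and ubiquinone, gave 4 positive and 6 negative log2 fold changes with a median of -0.13, and -0.04 without WT 3, and 0 passed. Ggps1, geranylgeranyl pyrophosphate synthase, stood at 2055, 2251 and 1514 normalised read counts in Hdac2 cKO 1, 2 and 3, against 1972, 1789.8 and 429.3 in WT 1, 2 and 3. Its log2 fold change of 0.74 (SE 0.57) was 0.03 without WT 3. For Coq2, the prenyltransferase of ubiquinone synthesis, it was -0.39 (SE 0.27), and -0.20 without WT 3. Fnta, a subunit of protein farnesyltransferase, did not overlap, at 3633 to 3904 in Hdac2 cKO against 3913 to 5311 in WT, and the nearest libraries of the 2 groups lay close together. The difference was -0.21 on the log2 scale, and -0.07 without WT 3.

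Of the 10 genes that regulate the pathway through SREBP, 0 passed, with 4 positive and 6 negative log2 fold changes and a median of -0.05. Without WT 3 these were 5 positive and 5 negative, and the median was again -0.05. Srebf2, which encodes SREBP2, stood at 7089, 6177 and 5011 normalised read counts in Hdac2 cKO 1, 2 and 3, against 6359, 6952 and 5553 in WT 1, 2 and 3, and its log2 fold change was -0.05, and -0.14 without WT 3. For Scap it was -0.51 (SE 0.38), and -0.10 without WT 3. Insig2, the paralog of Insig1, did not overlap, with 1362 ± 28.4 in Hdac2 cKO against 1042 ± 405 in WT (SD, n = 3 each). Its log2 fold change of 0.48 (SE 0.33) was 0.09 without WT 3, so that most of that distance lay in 1 library.

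Of the 12 genes of sterol uptake and trafficking, 0 passed in limma or DESeq2, and 8 had positive and 4 negative log2 fold changes with a median of 0.08. Without WT 3, 5 were positive and 7 negative, with a median of -0.05. Npc2, which binds cholesterol inside lysosomes, averaged 4106 ± 383 normalised read counts in Hdac2 cKO and 4871 ± 873 in WT (SD, n = 3 each). On the log2 scale its groups differed by -0.24 (SE 0.21, limma adjusted p = 0.927), and by -0.10 without WT 3.

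Of the 11 genes of efflux and storage, 0 passed, and 9 had positive and 2 negative log2 fold changes, with a median of 0.16. Without WT 3 these were 5 positive and 6 negative, with a median of -0.01. Abca1, the exporter of cholesterol to apolipoprotein particles, stood at 3192, 3273 and 3420.1 normalised read counts in Hdac2 cKO 1, 2 and 3, against 3148, 2205 and 1976 in WT 1, 2 and 3. The groups did not overlap, though Hdac2 cKO 1 and WT 1 lay close, and they differed by 0.46 on the log2 scale (SE 0.23, limma adjusted p = 0.927), and by 0.32 without WT 3. Apoe, the lipid carrier of glia, averaged 85562 ± 11055 in Hdac2 cKO and 129350 ± 46838 in WT (SD, n = 3 each). Its log2 fold change was -0.55 (SE 0.29), and -0.27 without WT 3.

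**Figure D4:**
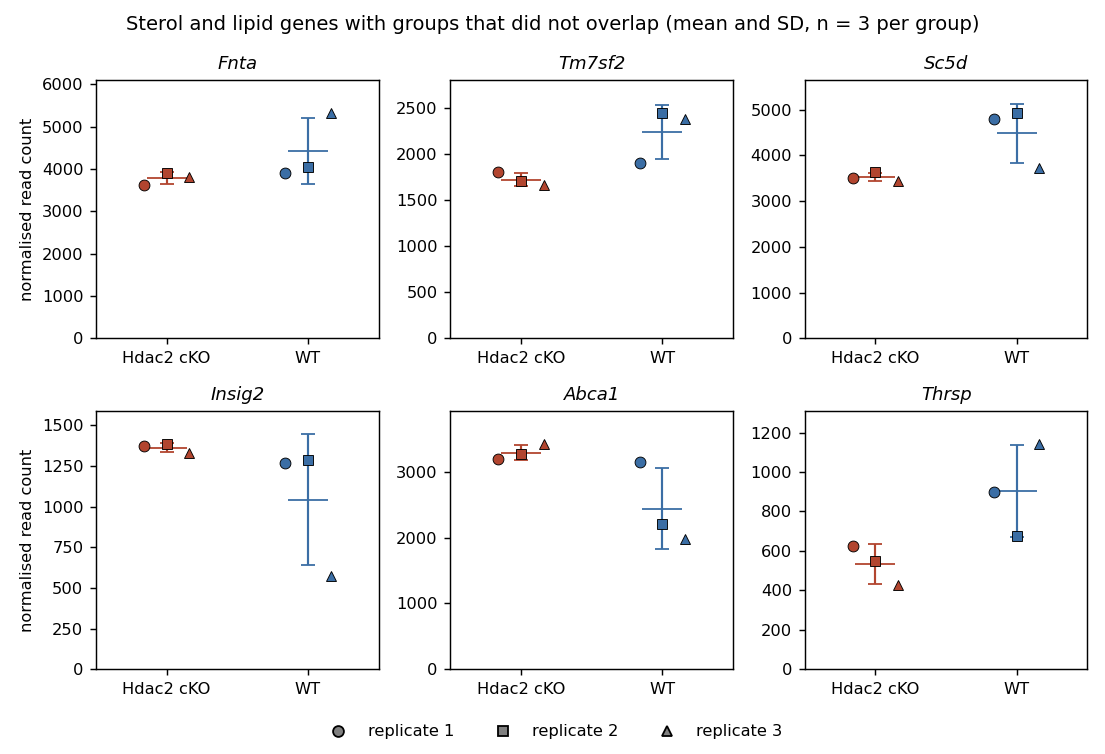
Normalised read counts (vertical axes, starting at 0) of 6 other sterol and lipid genes whose Hdac2 cKO (red) and WT (blue) libraries did not overlap, with the mean and SD of each group. For Thrsp the knockout libraries lie between 426.6 and 626.4 and the WT ones between 674.5 and 1141, whereas for Fnta, Insig2 and Abca1 the nearest libraries of the groups almost touch.

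Counted over all 70 other genes of the lists, fatty acid synthesis included, 8 had groups that did not overlap, 3 higher and 5 lower in Hdac2 cKO. Over all tested genes the share was 8.54%. The higher ones included Insig2 and Abca1, and the lower ones included Fnta, Tm7sf2, Sc5d and Thrsp. At an unadjusted p under 0.05 limma gave 2 of the 70, Thrsp among them, beside 1.85% of all genes.

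The mean profile of the 7 genes, each centred on its own mean on the log2 scale, was 0.09, -0.03 and -0.15 in Hdac2 cKO 1, 2 and 3 and 0.04, 0.20 and -0.15 in WT 1, 2 and 3. Both libraries numbered 3 were lowest. Individual genes followed this mean unequally over the 6 libraries, with a Pearson correlation of 0.90 for Insig1, 0.82 for Sqle, 0.77 for Dhcr7, 0.73 for Fdps and 0.70 for Idi1, against -0.46 for Hmgcs1 and -0.66 for Fdft1. Between single genes, Hmgcs1 and Fdft1 correlated by 0.94 over the 6 libraries and by 0.25 over the 5 without WT 3, so their likeness rested on that library. Idi1 and Insig1 correlated by 0.88 over the 6 and by 0.93 over the 5. The 5 genes outside the set whose pattern was most like the mean were Egln3 (0.99), Brsk1 (0.99), Prdm6 (0.99), Mmp14 (0.98) and Tmem163 (0.98). These were the highest of all tested genes over only 6 libraries, which share depth and scaling, and are given as a description.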

How the data were processed

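RNA from ganglia of 3 Hdac2 cKO and 3 WT samples was sequenced. Per the submitters' processing notes the tools were HISAT2, SAMtools, featureCounts and DESeq2, and the build was mm10. The sources used here do not give versions, strand setting or annotation. The deposited signal values are gene read counts that the authors divided by 1 size factor per library. The step of 1 read was taken in each column from its smallest value above 0 and refined by least squares on the column's values. After division by that step, 100% of values were whole within 0.01. This gave 18943595 to 42070531 reads per library. Without strand information, reads of overlapping genes cannot be told apart. Symbols and positions came from GENCODE M21 (54409 of 54532 rows matched).

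Values of at least 10 in at least 3 libraries were kept (18410 genes) and tested as log2 (value + 1) with limma 3.58.1 (R 4.3.3; intensity trend, robust variances), two-sided, with Benjamini-Hochberg adjustment at 0.05. The added 1 shrinks the fold changes of low genes, while a library without reads of a gene can enlarge them on this scale. Alternatives were DESeq2 1.42.0 and edgeR 4.0.16 on recovered reads, limma-voom, other scaling, pseudocounts of 0.5 and 5, filters, the replicate block, array weights, a sex term and leaving out libraries. The group-only fits of limma, edgeR with TMM scaling and DESeq2 were checked on simulated data first. The other settings were not. Same-numbered libraries deviated together across genes by correlations of 0.401, 0.147 and 0.422. The replicate block treats these numbers as pairing them, from the data and not the labels. The main limma fit, its intervals and the permutation tests did not use the pairing. Hdac2 cKO 2 and WT 1 correlated by 0.342, so the pairing is uncertain.

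Members and lists were chosen with earlier results of these data known. Beside the 7 genes, up to 2 genes per list with the smallest limma p were named. Srebf2, Nsdhl, Msmo1 and Fnta were named after their values were seen. Some listed genes count in the totals but are not reported here by name.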

Additional observations from a re-analysis of the deposited data

How the results depend on the processing

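No setting called any of the 7 genes, and their median log2 fold change lay between -0.193 (array weights) and 0.0855 (without Hdac2 cKO 3). Leaving out each library gave medians from -0.164 to 0.0855 and called 0 genes in all. Over all genes, DESeq2 called 28, DESeq2 with the replicate block 79, limma with array weights 567 and limma without both libraries numbered 3 called 5, against 0 in limma. With the replicate block limma called 0, and the median of the 7 was -0.08. The block in DESeq2 changed the call of none of the 7. Signs turned in some settings, and the cause was not tested. With array weights the log2 fold change was -0.0003 for Idi1, 0.0312 for Fdft1, -0.0702 for Sqle and -0.357 for Dhcr7. Without both libraries numbered 3 it was -0.0265 for Idi1, -0.0125 for Sqle and -0.102 for Dhcr7. Leaving out 1 library at a time, it ran from -0.142 (without WT 3) to 0.403 for Idi1, from -0.503 to 0.0572 (without WT 3) for Fdft1, from -0.0963 (without WT 3) to 0.271 for Sqle and from -0.106 (without WT 3) to 0.499 for Dhcr7. For Pmvk it ran from -0.595 to 0.0606 (without WT 3), and for Insig1 from -0.334 (without WT 3) to 0.0855, with 0.0243 without WT 1 and 0.0787 without WT 2.

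With 3 libraries per group, the 95% interval of each of the 7 genes reached 0.73 or more from 0 on at least 1 side. Differences of that size on the log2 scale could pass undetected. After adjustment over all genes larger ones could too, as Hdac2 itself, at -2.47, had a limma adjusted p of 0.927.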

Other observations

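Fatty acid synthesis, the other arm of SREBP control, had 12 listed genes, of which 8 had positive and 4 negative log2 fold changes (median 0.26), and 0 passed limma or DESeq2. Without WT 3, 2 were positive and 10 negative, with a median of -0.15. WT 3 was the lowest library for 8 of the 12. Scd1, a stearoyl-CoA desaturase, averaged 26559 ± 5244 normalised read counts in Hdac2 cKO and 18851 ± 6142.5 in WT (SD, n = 3 each), which is 0.53 on the log2 scale (SE 0.31, limma adjusted p = 0.927) and 0.23 without WT 3.

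Thrsp, a lipogenic gene also abundant in fat, stood at 626.4, 548.4 and 426.6 normalised read counts in Hdac2 cKO 1, 2 and 3, against 899.1, 674.5 and 1141 in WT 1, 2 and 3. The groups did not overlap and differed by -0.75 on the log2 scale (SE 0.28, limma adjusted p = 0.927), and by -0.56 without WT 3. The summed level of 8 adipocyte markers was 563.8, 759.7 and 274.9 in Hdac2 cKO 1, 2 and 3, against 2019, 372.2 and 519.2 in WT 1, 2 and 3. Their part in the level of Thrsp was not tested.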
